A study of Mus musculus with 8 samples.

Results

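The genes described here encode the machinery that decides whether a cell passes from G1 into S phase: the D-type cyclins (Ccnd1, Ccnd2, Ccnd3), the E-type cyclins (Ccne1, Ccne2), the cyclin-dependent kinases they activate (Cdk4, Cdk6, Cdk2) and the pocket proteins of the RB family (Rb1, Rbl1). The 10 genes were taken by name, and their probe sets were those that the array's annotation assigns to a single member gene. This gave 30 probe sets for 10 genes, of 34945 one-gene probe sets for 18193 genes on the array. RNA came from mouse embryonic fibroblasts, cells cultured from embryos, labelled as C57BL/6 and at passage 13. There were 4 groups of 2 arrays each: cells without Stat5a and Stat5b (null, KO) given growth hormone (GH), null cells without GH, wild-type cells (WT) given GH and wild-type cells without GH. All cells were first starved for 5 hours, and GH was used at 1 ug/ml for 2 hours. The sources used here do not give which part of Stat5a or Stat5b was deleted or how the lines were made. The labels call the replicates biological without saying whether embryos or cultures differed between them, and p-values therefore cover only the spread between arrays, which may be technical.

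In G1, D-type cyclins assemble with CDK4 or CDK6 and begin to phosphorylate RB, which holds E2F transcription factors in check. Released E2F raises the E-type cyclins, which activate CDK2 and complete the inactivation of RB. In fibroblasts the D-type cyclins are the branch of this pathway that responds to growth factors, and the series title names Cdkn2b and Cdkn1a, genes for CDK inhibitors, as targets through which STAT5 restrains proliferation. STAT5, which GH activates through its receptor and JAK2, has been linked to Ccnd1 transcription in other cell types.

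Values are log2 expression levels, on which a difference of 1 is a doubling, and levels of different probe sets cannot be set against each other. Array medians lay between 6.89 and 6.96, and replicate arrays correlated at 0.997 to 0.998 over all probe sets. The first quartile of all gene values, 6.1, served as the limit below which a level was not set apart from background. Stat5b was lower in null than in wild-type cells, at 7.32 and 8.01 without GH, and Stat5a was at 7.49 in wild-type cells without GH, with null cells under the first quartile. All 12 fibroblast markers lay above the first quartile in both genotypes, and their mean level per array was 13.39 to 13.50 in null cells and 12.60 to 12.70 in wild-type cells. The median log2 difference of the 12, null over wild type, was only -0.01 without GH and 0.04 with GH. The gap between the mean levels thus came from some of the markers.

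Markers of another cell type moved with genotype and therefore with every genotype difference given here. The 10 markers of macrophages and leukocytes were each lower in null cells, with and without GH, and their mean level per array was 6.48 to 6.65 in null cells and 9.84 to 10.03 in wild-type cells. Over all genes, 22.7% were called lower without GH and 23.1% with GH. Ptprc, Adgre1, Itgam and Aif1 were below the first quartile in null cells, whereas none of the 10 was below it in wild-type cells. The part of this difference in the results on the cyclins, CDKs and pocket proteins was not tested. In RNA of whole cultures, fewer cells of a type and less RNA per cell cannot be told apart.

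Null cells without GH had lower levels of most of the cyclin genes, of Cdk6 and of Rb1 than wild-type cells. At an adjusted p below 0.05 in limma, a linear model fitted to all genes, 6 members were lower (Ccnd1, Ccnd2, Ccne1, Ccne2, Cdk6 and Rb1) and 2 higher (Cdk4 and Rbl1), while Ccnd3 and Cdk2 did not pass. Of all 18193 genes, 47.5% were called in this comparison, 24.8% higher and 22.7% lower. The median log2 difference was -0.75 over the 10 members and 0.03 over all genes. With GH, 5 members were lower (Ccnd1, Ccnd2, Ccne1, Ccne2 and Rb1) and none higher, where 45.3% of all genes were called, 22.2% higher and 23.1% lower. At an unadjusted p below 0.05, 6 members differed. The median was then -0.54 over the members and -0.02 over all genes. All 10 members had a mean level above the first quartile. With genes of lower mean left out, 8204 of 13726 genes were called without GH and 7938 with GH, larger shares than over all genes. Across both GH states, the 4 null arrays lay outside the range of the 4 wild-type arrays for 8 of the 10 members, 6 below and 2 above, against 47% of all genes (23.6% below and 23.4% above). Most members that differed were thus lower in null cells, and over all genes the calls were split about evenly.

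**Figure D1:**
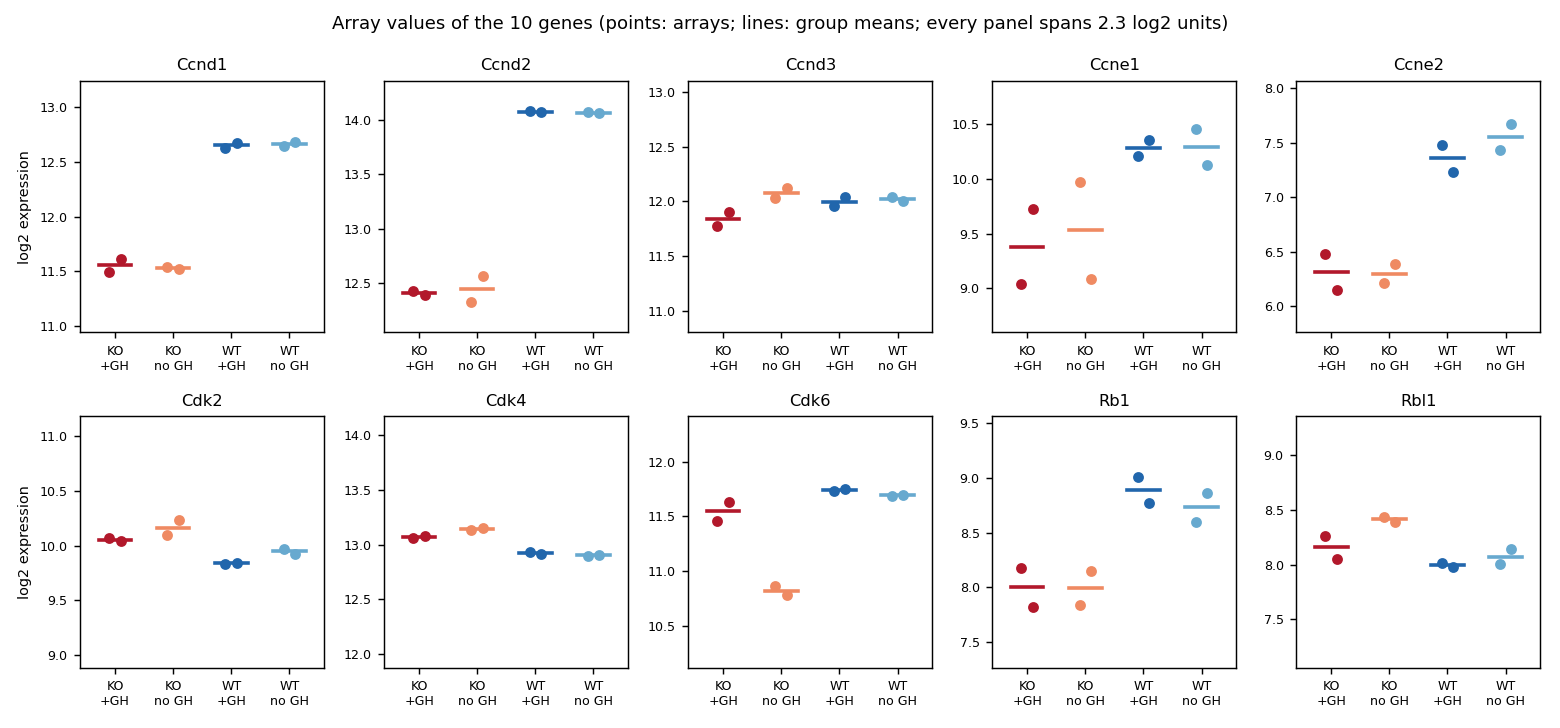
Log2 expression of each of the 10 genes (y axis) in the 4 groups (x axis), with a point for each array and a line at the mean of 2 arrays. Ccnd1 and Ccnd2 fall into a low null pair of groups and a high wild-type pair, whereas Cdk6 is lowest in null cells without GH.

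Ccnd2, the D-type cyclin with the widest range among the members, stood at 12.43 and 12.39 in null cells with GH and at 12.33 and 12.57 in null cells without GH. In wild-type cells it stood at 14.08 and 14.07 with GH and at 14.07 and 14.06 without. The groups of the 2 genotypes were far apart, and GH left no visible mark in either. Null cells were 3.06-fold lower without GH (log2 difference -1.61 ± 0.10, limma adjusted p = 3.87e-08) and 3.16-fold lower with GH (-1.66 ± 0.10, adjusted p = 3.12e-08), where the error is limma's standard error with 2 arrays per group. The change without GH was larger than that of 95.5% of genes. All 7 probe sets of Ccnd2 were lower in null cells whether or not GH was given, by log2 differences between -2.28 and -1.58 without GH and between -2.07 and -1.42 with GH. Of all 45037 probe sets tested alone, 38.6% were called without GH (19% higher and 19.6% lower) and 37.3% with GH (19.6% higher and 17.7% lower).

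Ccnd1, which encodes cyclin D1, the D-type cyclin best known as a sensor of growth factor signals, stood at 11.50 and 11.62 in null cells with GH and at 11.54 and 11.52 in null cells without GH. Wild-type arrays read 12.63 and 12.67 with GH and 12.65 and 12.69 without. As for Ccnd2, genotype separated the arrays completely and GH did not separate them. The null level was 2.20-fold lower without GH (-1.13 ± 0.09, limma adjusted p = 3.52e-07) and 2.14-fold lower with GH (-1.10 ± 0.09, adjusted p = 4.97e-07). All 3 probe sets passed in both GH states, with differences from -1.38 to -1.13 without GH and from -1.27 to -1.10 with GH.

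Ccnd3, the third D-type cyclin gene, did not pass in either GH state. It stood at 11.77 and 11.90 in null cells with GH and at 12.03 and 12.13 in null cells without GH, against 11.96 and 12.04 in wild-type cells with GH and 12.04 and 12.001 without. The ranges of the genotypes overlapped. The difference without GH was 0.05 (95% interval -0.14 to 0.25, limma adjusted p = 0.667), and with GH it was -0.16 (-0.36 to 0.04, adjusted p = 0.189). Its probe sets did not run together: 1444323_at did not pass either (-0.19 without GH and -0.17 with GH), while 1438805_at was below the first quartile in 3 of the 4 groups and at 6.23 in null cells without GH. With the mean of all 3 probe sets, this dim one included, Ccnd3 was called higher in null cells without GH (0.27, limma adjusted p = 0.00977).

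Genes whose values over the 8 arrays ran closest to these members, after each gene was centred on its own mean, were found by the root mean square difference of their log2 values. For Ccnd2 they were Csrp1 (0.063) and Col18a1 (0.064), for Ccnd1 Tmem9b (0.035) and Nme1 (0.041), and for Ccne2 Sgms1 (0.061) and Tmed5 (0.078). Because they were chosen for this likeness, each has a low null and a high wild-type level. Examples are 12.36 and 13.94 for Csrp1 with GH and 10.11 and 11.21 for Tmem9b with GH. The 4 null arrays lay below the 4 wild-type arrays for 23.6% of all genes.

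Both E-type cyclin genes were lower in null cells. Ccne2 has a single probe set, which read 6.48 and 6.15 in null cells with GH and 6.21 and 6.39 in null cells without GH, against 7.48 and 7.23 in wild-type cells with GH and 7.43 and 7.67 without. The genotypes did not overlap. The null values lay close to the first quartile of 6.1. The differences were -1.25 ± 0.13 without GH (limma adjusted p = 6.85e-06) and -1.04 ± 0.13 with GH (adjusted p = 3.66e-05).

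Ccne1 was measured by 2 probe sets that differed in how firmly they separated the groups. The one with the higher mean, 1441910_x_at, read 9.04 and 9.72 in null cells with GH and 9.97 and 9.09 in null cells without GH, against 10.21 and 10.36 in wild-type cells with GH and 10.46 and 10.13 without. The null arrays were all lower but spread widely, with a standard deviation of 0.63 between the 2 null arrays without GH. The differences were -0.76 ± 0.26 without GH (limma adjusted p = 0.0273) and -0.90 ± 0.26 with GH (adjusted p = 0.0113). Leaving out replicate 3 of null cells without GH reduced the first to -0.32 (adjusted p = 0.325), leaving out replicate 2 of wild-type cells without GH gave -0.59 (adjusted p = 0.127), and leaving out replicate 2 of null cells with GH reduced the second to -0.56 (adjusted p = 0.184). The other probe set, 1416492_at, read 8.05 and 8.33 in null cells with GH and 8.40 and 8.24 in null cells without GH, against 10.16 and 10.27 in wild-type cells with GH and 10.29 and 10.41 without. Its difference was -2.03 ± 0.11 without GH (limma adjusted p = 5.88e-08 over all probe sets) and -2.03 ± 0.11 with GH (adjusted p = 6.1e-08). The direction was thus shared by both probe sets, while the Ccne1 difference was much larger in the second.

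Cdk2, the kinase partner of the E-type cyclins, differed little. It stood at 10.06 and 10.04 in null cells with GH and 10.09 and 10.23 in null cells without GH, against 9.83 and 9.84 in wild-type cells with GH and 9.97 and 9.92 without. The 4 null arrays were all above the 4 wild-type arrays, but the gene did not pass in either GH state (0.22 ± 0.09, limma adjusted p = 0.0625 without GH, and 0.21 ± 0.09, adjusted p = 0.0663 with GH). When genes of low mean were left out of the test it passed without GH (limma adjusted p = 0.0428) and with GH (adjusted p = 0.045). Its second probe set was below the first quartile in all 4 groups.

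Promoter windows of 300 bases, from 250 before to 50 after the gene's start, were taken from RefSeq (GRCm38.p6) and found for 6 of the 10 members. None was found for Ccnd1, Ccnd2, Ccne2 and Rb1, so the search does not cover these genes. Windows are shown here for Ccne1 and Cdk2 because E2F is known to act on this branch, and the same search was made for the windows shown further on. The motifs, on either strand, were TTTCCCGC, TTTCGCGC, TTTGCCGC or TTTGGCGC for E2F, TTCNNNGAA for STAT factors, TGACGTCA for CREB and GGGCGG for Sp1. Of all 32851 windows in that table, 2.26% held the E2F motif, 8.3% the STAT motif, 1.79% the CREB motif and 35.7% the Sp1 motif. Capitals mark matches.
Ccne1, chr7:38107441-38107740, minus strand: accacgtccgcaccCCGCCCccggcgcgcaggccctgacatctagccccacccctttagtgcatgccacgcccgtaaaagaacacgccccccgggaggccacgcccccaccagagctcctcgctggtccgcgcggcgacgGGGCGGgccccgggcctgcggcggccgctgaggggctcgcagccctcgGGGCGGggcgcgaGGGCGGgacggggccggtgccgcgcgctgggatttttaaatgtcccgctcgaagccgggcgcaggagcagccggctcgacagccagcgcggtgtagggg
Cdk2, chr10:128705002-128705301, minus strand: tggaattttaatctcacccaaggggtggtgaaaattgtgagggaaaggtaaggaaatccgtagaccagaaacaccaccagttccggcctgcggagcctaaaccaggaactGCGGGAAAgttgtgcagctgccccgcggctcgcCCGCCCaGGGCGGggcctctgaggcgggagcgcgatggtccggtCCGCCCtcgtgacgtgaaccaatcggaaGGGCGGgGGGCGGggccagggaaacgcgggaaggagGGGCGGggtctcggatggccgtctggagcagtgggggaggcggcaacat
The Cdk2 window held 1 E2F match, at position -140 from the start on the opposite strand, and 6 Sp1 matches, none overlapping another. The Ccne1 window held 4 Sp1 matches and none of the other motifs. Windows of Ccnd3 and Cdk4, not shown, held only Sp1 matches, 2 in each Ccnd3 window and 3 in that of Cdk4.

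The kinase partners of the D-type cyclins went opposite ways in null cells without GH. Cdk4 stood at 13.06 and 13.08 in null cells with GH and 13.13 and 13.15 in null cells without GH, against 12.93 and 12.91 in wild-type cells with GH and 12.90 and 12.91 without. Replicates differed by very little and the genotypes did not overlap, although the step was small. The difference was 1.18-fold without GH (0.24 ± 0.08, limma adjusted p = 0.0305) and did not pass with GH (0.15, 95% interval -0.03 to 0.33, adjusted p = 0.183). With single arrays left out in turn, the difference without GH stayed between 0.23 and 0.25 but passed in only 2 of 8 fits. Of its 3 probe sets, 2 were called higher without GH and none with GH.

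Cdk6 was the member whose level depended on both genotype and GH. It stood at 11.46 and 11.64 in null cells with GH and at 10.86 and 10.78 in null cells without GH. In wild-type cells it stood at 11.74 and 11.75 with GH and at 11.69 and 11.70 without. The 2 null arrays without GH were below all others, and the other 6 arrays lay close together. Null cells were 1.83-fold lower than wild-type cells without GH (-0.87 ± 0.09, limma adjusted p = 5.62e-06), while with GH the difference was -0.20 (95% interval -0.40 to 0.00343, adjusted p = 0.105).

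GH raised Cdk6 in null cells 1.65-fold (0.73 ± 0.09, limma adjusted p = 0.000363), the one call among 10 members, where 11.7% of all genes were called, 5.36% higher and 6.35% lower. In wild-type cells the GH difference of Cdk6 was 0.05 (95% interval -0.15 to 0.25, adjusted p = 0.955). The 2 responses differed from each other: the GH effect in null cells minus that in wild-type cells was 0.68 ± 0.13 (limma adjusted p = 0.0101), again the one call among the members, where 5.16% of all genes were called, 2.83% higher and 2.33% lower. The GH response in null cells was larger than that of 98.3% of genes. These results share the 2 null arrays without GH. All 3 probe sets of Cdk6 gave the same calls when tested alone, with GH differences in null cells of 0.73, 0.73 and 0.52 and differences between the responses of 0.68, 0.72 and 0.61. Of all probe sets, 10.8% were called for GH in null cells (7.37% higher and 3.46% lower) and 5.48% for the difference between the responses (4.05% higher and 1.44% lower). Without replicate 3 of null cells with GH, the difference between the responses was 0.59 and missed the threshold (adjusted p = 0.0558), and neither it nor the response in null cells passed a test against a change of 1.5-fold. None of the 10 macrophage and leukocyte markers changed with GH in null cells by limma, with 1 at an unadjusted p below 0.05. For the difference between the GH effects, 1 of the 10, Adgre1, was called lower (limma adjusted p = 0.0303), with a null level below the first quartile with GH, and its part in the Cdk6 result was not tested.

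**Figure D2:**
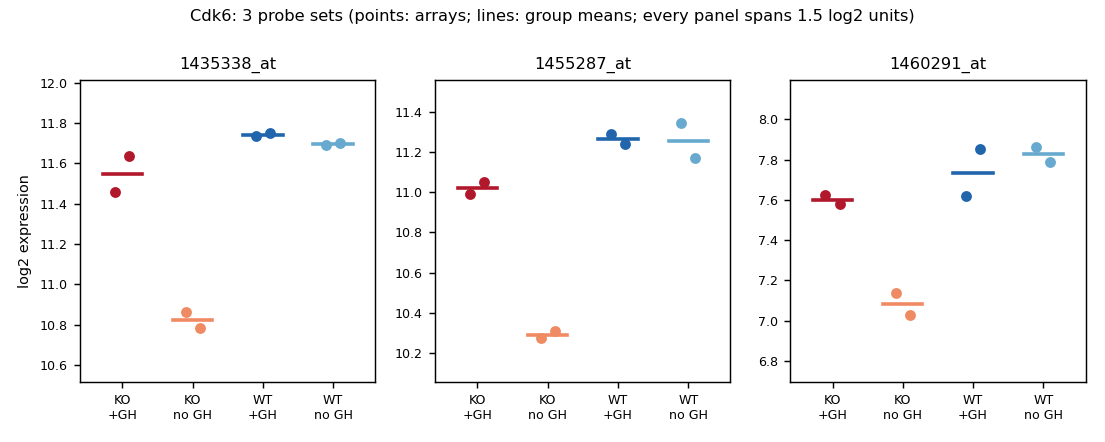
Log2 expression of the 3 Cdk6 probe sets (y axis, panels named by probe set) in the 4 groups (x axis), with a point for each array and a line at each group mean. In every panel the 2 null arrays without GH are the lowest.

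The Cdk6 promoter window is shown because Cdk6 is the member that responded to GH. It held none of the motifs searched, and so no base is in capitals.
Cdk6, chr5:3343643-3343942, plus strand: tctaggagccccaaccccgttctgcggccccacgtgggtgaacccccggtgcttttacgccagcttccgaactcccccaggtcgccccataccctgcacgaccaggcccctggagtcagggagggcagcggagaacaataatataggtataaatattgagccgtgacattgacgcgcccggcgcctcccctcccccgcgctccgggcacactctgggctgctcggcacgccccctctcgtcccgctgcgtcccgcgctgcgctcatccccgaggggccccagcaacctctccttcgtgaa

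The other members did not pass the test for GH. In wild-type cells none of the 10 was called by limma and none had an unadjusted p below 0.05, with differences between -0.20 (Ccne2) and 0.16 (Rb1), against 2.62% of all genes called (1.72% higher and 0.896% lower). The 95% intervals for Ccnd1 (-0.20 to 0.17), Ccnd2 (-0.20 to 0.22) and Ccnd3 (-0.22 to 0.17) left room only for changes well under 1.5-fold in wild-type cells, whereas that for Ccne1 (-0.57 to 0.55) was wide. In null cells, Ccnd3 (-0.24 ± 0.09) and Rbl1 (-0.26 ± 0.10) had unadjusted p values of 0.0231 each but did not pass after adjustment (limma adjusted p = 0.119 for both). Ccnd1 (0.02) and Ccnd2 (-0.04) were near 0 there as well. For the 9 members other than Cdk6, the GH effects of the genotypes differed by -0.21 to 0.21 and none passed (adjusted p of 0.444 or more).

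**Figure D3:**
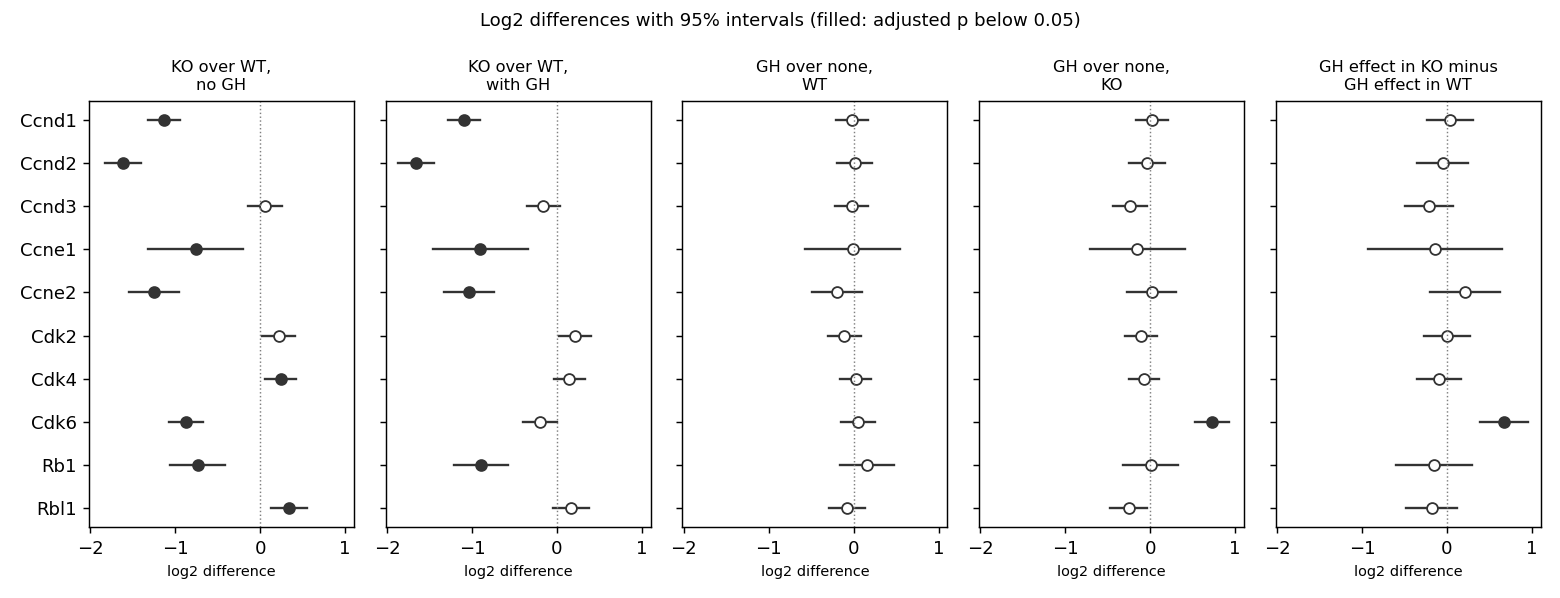
Log2 differences (x axis) of the 10 genes (y axis) in the 5 comparisons (panels), with points for limma's estimates and bars for 95% intervals. Filled points have an adjusted p below 0.05, and Cdk6 alone has a filled point in the panels on GH.

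The pocket protein genes moved in different directions. Rb1, whose product restrains activating E2F factors, stood at 8.18 and 7.82 in null cells with GH and 7.84 and 8.15 in null cells without GH, against 9.01 and 8.77 in wild-type cells with GH and 8.60 and 8.87 without. The genotypes did not overlap, though replicates were spread by standard deviations of 0.17 to 0.25. Null cells were 1.67-fold lower without GH (-0.74 ± 0.15, limma adjusted p = 0.00104) and 1.85-fold lower with GH (-0.89 ± 0.15, adjusted p = 0.000261). The second Rb1 probe set was below the first quartile in all 4 groups.

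Rbl1, which encodes p107, a pocket protein whose own gene is a target of E2F, stood at 8.27 and 8.05 in null cells with GH and 8.44 and 8.39 in null cells without GH, against 8.02 and 7.98 in wild-type cells with GH and 8.01 and 8.14 without. Null arrays without GH were the highest, and null arrays with GH overlapped the wild-type arrays. The difference was 1.27-fold without GH (0.34 ± 0.10, limma adjusted p = 0.0118) and did not pass with GH (0.16, 95% interval -0.05 to 0.38, adjusted p = 0.21). Without replicate 2 of null cells without GH the adjusted p was 0.0606, and without replicate 2 of wild-type cells without GH it was 0.0778. Of its 3 other probe sets, 2 were below the first quartile in all 4 groups and 1 in 1 group. Its promoter window is shown for its E2F match, at position -18 from the start.
Rbl1, chr2:157204485-157204784, minus strand: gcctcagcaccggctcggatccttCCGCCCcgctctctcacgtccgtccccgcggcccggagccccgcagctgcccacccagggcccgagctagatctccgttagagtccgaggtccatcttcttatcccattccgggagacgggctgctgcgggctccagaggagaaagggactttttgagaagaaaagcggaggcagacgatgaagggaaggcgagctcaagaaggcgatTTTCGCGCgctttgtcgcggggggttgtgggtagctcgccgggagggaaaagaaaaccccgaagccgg
It also held 1 Sp1 match, at position -226 on the opposite strand.

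Rbl2, the third pocket protein gene and no member of the set, was read beside them. It encodes p130, the form that prevails in resting cells and binds the repressive E2F4. Its level was 9.95 and 9.73 in null cells with GH and 10.10 and 10.37 in null cells without GH, against 8.90 and 8.74 in wild-type cells with GH and 8.49 and 8.66 without. Null arrays were all higher. The difference was 3.16-fold without GH (1.66 ± 0.12, limma adjusted p = 2.12e-07) and 2.03-fold with GH (1.02 ± 0.12, adjusted p = 1.63e-05), and its second probe set was higher too (1.58 without GH and 1.198 with GH). In null cells Rb1 was thus lower and Rbl2 higher in both GH states.

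**Figure D4:**
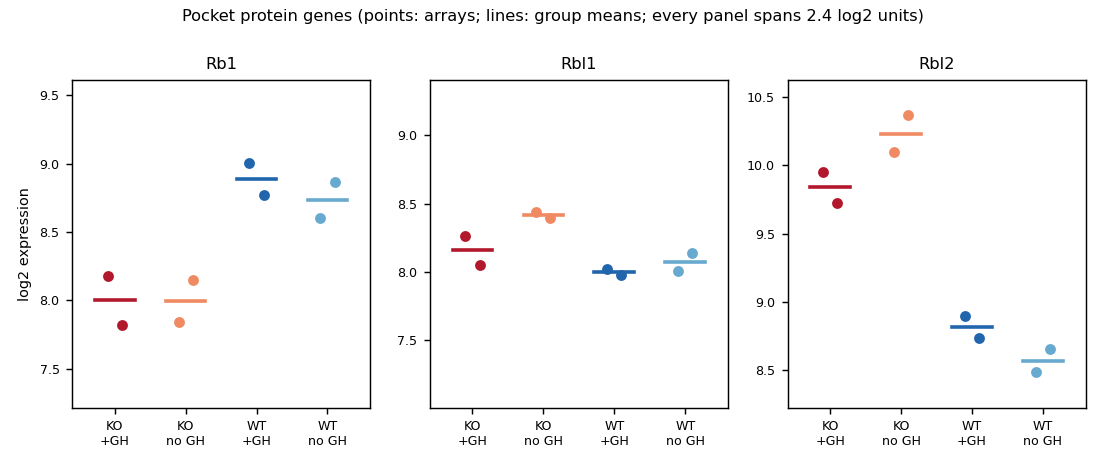
Log2 expression of Rb1, Rbl1 and Rbl2 (y axis) in the 4 groups (x axis), with a point for each array and a line at each group mean. Null arrays are below wild-type arrays for Rb1 and above them for Rbl2.

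Probe sets of a gene mostly ran together. Of the 30 probe sets, 24 were above the first quartile in all groups, 4 were below it in every group (1 each of Cdk2 and Rb1 and 2 of Rbl1) and 2 in some groups. For 18 probe sets the 4 null arrays lay below the 4 wild-type arrays, for 5 above, and for 7 the ranges overlapped. Over all 45037 probe sets the null arrays lay outside the wild-type range for 39.3%, below for 19.4% and above for 19.9%. Tested over all probe sets, 18 were lower and 6 higher in null cells without GH, and 14 were lower and 1 higher with GH, where 38.6% and 37.3% of all probe sets were called. Ccnd2 gave 7 and Ccnd1 3 of the lower ones in each GH state, so these counts repeat single genes. Of the 6 higher, 1438805_at of Ccnd3 and 1425166_at and 1432604_at of Rbl1 were below the first quartile in some or all groups. The 1 higher with GH was 1438805_at, at 5.82 in null and 5.38 in wild-type cells.

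**Figure D5:**
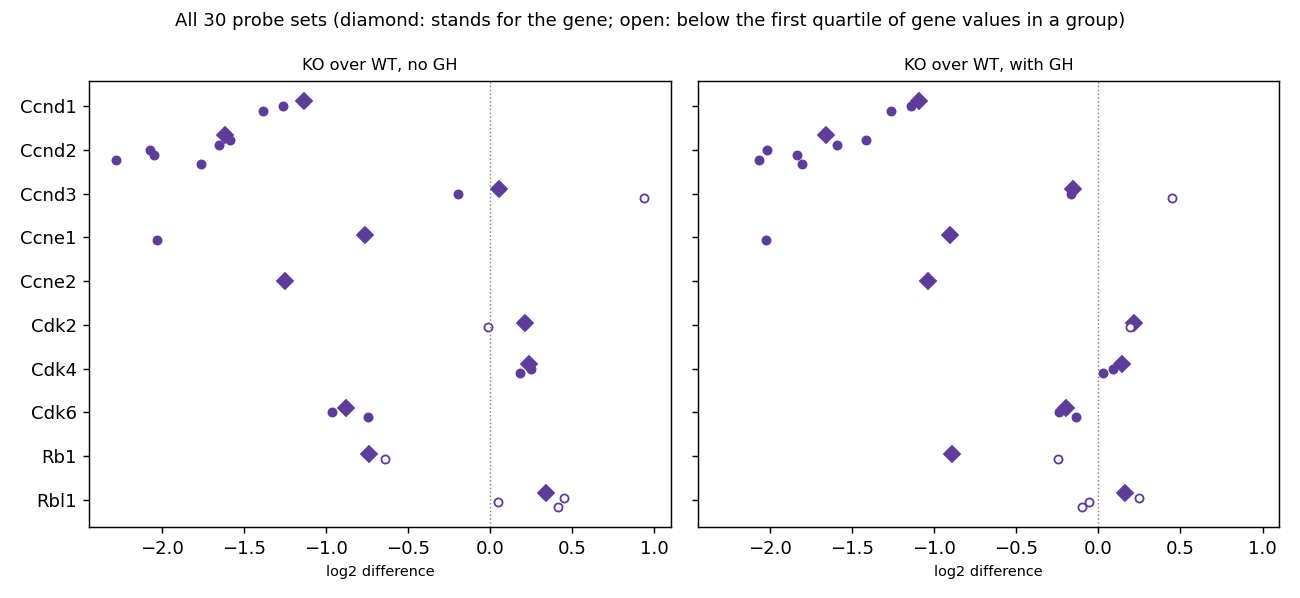
Log2 difference of null over wild-type cells (x axis) for each of the 30 probe sets, grouped by gene (y axis), without GH (left) and with GH (right). Diamonds stand for the gene in the tests and open symbols lie below the first quartile of gene values in at least 1 group. All probe sets of Ccnd1, Ccnd2, Ccne1, Ccne2 and Cdk6 lie left of 0 in both panels.

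Other genes of the pathway gave the setting of these levels. Of 23 measured E2F targets of DNA replication, 11 were higher and 3 lower in null cells without GH (median 0.21). With GH, 12 were higher and 3 lower. Over all genes, 24.8% were higher and 22.7% lower without GH, and 22.2% and 23.1% with GH. Orc6, a subunit of the origin recognition complex, was 2.33-fold higher without GH (1.22 ± 0.10), and Rrm2, a subunit of ribonucleotide reductase, was 2.05-fold lower (-1.03 ± 0.09). Thus E2F targets were more often higher than lower in null cells, in which Ccne1 and Ccne2, themselves known E2F targets, were lower. None of the 23 changed with GH in either genotype by limma (1 in wild-type and 3 in null cells at an unadjusted p below 0.05). Over all genes, 2.62% were called for GH in wild-type cells and 11.7% in null cells.

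Among 18 genes of the E2F, DP, pocket protein and DREAM complexes, 4 were higher (Rbl2, E2f4, Tfdp2 and Foxm1) and 3 lower (E2f3, Tfdp1 and Lin37) in null cells without GH, and 5 were higher and 3 lower with GH. The shares without GH, 22.2% higher and 16.7% lower, were no larger than those of all genes (24.8% and 22.7%). With GH they were 27.8% and 16.7%, against 22.2% and 23.1% of all genes. E2f4, the repressive partner of p130, was 1.59-fold higher without GH (0.66 ± 0.09, limma adjusted p = 7.42e-05). E2f1 did not pass without GH (-0.20 ± 0.10, limma adjusted p = 0.116) and was lower in null cells with GH (-0.31 ± 0.10, adjusted p = 0.018). Of these names, all but Rbl2 and E2f4 were picked after their values were seen.

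A list of 12 genes held other cyclins and CDKs, and also Mnat1 and Cdc25a, which are neither. Of the 12, 5 were higher and 6 lower in null cells without GH, the same counts as with GH. The 5 higher genes were not all the same. With GH, Ccng2 did not pass (0.11 ± 0.10, limma adjusted p = 0.434), while Cdc25a passed only with GH (0.45 ± 0.11, adjusted p = 0.00387). Beside these and the next counts, 24.8% of all genes were higher and 22.7% lower without GH, and 22.2% and 23.1% with GH. The mitotic cyclin gene Ccnb2 was 2.43-fold higher (1.28 ± 0.09), and Ccng1, a known p53 target, was 6.16-fold lower (-2.62 ± 0.15) without GH. Of 12 genes for the turnover and transport of D- and E-type cyclins, 6 were higher and none lower without GH by limma (6 in all at an unadjusted p below 0.05), and 6 were higher and 1 lower with GH. They included Skp2, which targets the inhibitor p27 for destruction (0.84 ± 0.08), and its cofactor Cks1b (0.58 ± 0.10). Of 8 CDK inhibitor genes, 4 were higher and 3 lower without GH and 3 were higher and 4 lower with GH. The lower genes without GH were Cdkn1a (-4.24 ± 0.10), Cdkn1c (-2.58 ± 0.12) and Cdkn2b (-1.03 ± 0.09). Cdkn1b, which encodes p27 (2.09 ± 0.11), and Cdkn2c (1.70 ± 0.09) were among the higher genes without GH. With GH in null cells, 1 of the 8 inhibitor genes was higher and 4 lower (5.36% and 6.35% of all genes). The higher one was Cdkn2b (0.45 ± 0.09, limma adjusted p = 0.00788). For the difference between the GH effects, 1 was called positive and 2 negative (2.83% and 2.33% of all genes). The positive one was Cdkn2b too (0.49 ± 0.13, limma adjusted p = 0.0482). Of the 12 genes of the cyclin and CDK list, 4 were lower with GH in null cells, where 6.35% of all genes were. In wild-type cells 1 was higher, Ccng2 (0.73 ± 0.10, limma adjusted p = 0.00125), against 1.72% of all genes. Ccng2 was also the 1 called for the difference between the GH effects, as negative (-1.08 ± 0.14, limma adjusted p = 0.000953). Ccng2, Cdc25a, Cdkn2b, Cdkn1b and Cdkn2c were picked after their values were seen.

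A list of 20 genes linked to D-type cyclin transcription held transcription factors, Stat5a and Stat5b included, and also Ccn1 and Ccn2, which encode secreted matricellular proteins and are target genes of YAP, not regulators of the cyclin genes. Of the 20, 10 were higher and 6 lower in null cells without GH, and 10 were higher and 3 lower with GH. Over all genes, 24.8% were higher and 22.7% lower without GH, and 22.2% and 23.1% with GH. Of the 18 without Ccn1 and Ccn2, a count added after the values were seen, 9 were higher and 5 lower without GH, and 9 were higher and 2 lower with GH. The deleted genes Stat5a and Stat5b were among the 5 lower without GH and were the only 2 lower with GH. What lowered the signal of these 2 genes was not tested, and their direction says nothing on the other genes. Egr1 was 6.36-fold higher (2.67 ± 0.10) and the YAP target Ccn2 4.33-fold lower (-2.11 ± 0.09) without GH. GH changed 10 of the 20 in null cells (7 higher and 3 lower), none of them Ccn1 or Ccn2. Stat5b, itself a deleted gene, was 1 of the 3 lower (-0.33 ± 0.09, limma adjusted p = 0.0341). In wild-type cells 5 of the 20 changed (2 higher and 3 lower, or 2 higher and 1 lower without Ccn1 and Ccn2). The shares of all genes called were 11.7% in null and 2.62% in wild-type cells. The difference between the GH effects was called positive for 6 of the 20 (Fosl1, Jun, Ets1 and Myc, and the YAP targets Ccn1 and Ccn2) and negative for none. Over all genes, 2.83% were called positive and 2.33% negative. Fosl1 and Jun, picked after their values were seen, are subunits of AP-1: Fosl1 rose by 1.47 ± 0.10 and Jun by 1.45 ± 0.10 in null cells with GH, against -0.18 and 0.35 in wild-type cells, for which neither passed. The other AP-1 genes of the list had other patterns. Mean Junb rose with GH in both genotypes, from 10.21 to 11.50 in null and from 10.10 to 11.21 in wild-type cells. In null cells, mean Fos fell with GH from 9.60 to 8.90 and mean Fosl2 from 11.18 to 10.98. Ccnd1, Ccnd2 and Ccnd3 were not called for GH in either genotype.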

How the data were processed

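RNA of 8 samples was measured on Affymetrix mouse genome arrays. The deposited log2 values come from the robust multi-array average (RMA) in Partek 6.10.0511, per the submitters' processing notes. RMA corrects background, equalises arrays and summarises probes, and the sources used here give neither its settings nor a genome build. Of 45101 probe sets, 64 controls were left out, and 34945 had 1 gene in the platform annotation, 932 several and 9160 none. Symbols were updated by Entrez identifier for 34741. The probe set with the highest mean stood for each of 18193 genes. Groups and replicate numbers (2 and 3) came from the titles; for 1 null array without GH the source label says 3, not 2.

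A linear model in limma 3.58.1 (R 4.3.3) gave each group of the 8 arrays its own mean, with 4 residual and 7.82 prior degrees of freedom. Adjusted p-values are Benjamini-Hochberg over all genes and called below 0.05. The script was tested on simulated data. For arrays, their number limits precision, and a gene's median residual SD was 0.10. Alternatives were the probe set choice, a filter on dim genes, median centring, a replicate block, 2-group fits, a 1.5-fold test, a variance trend and leaving out each array. The rule for names took all members, Rbl2, Stat5a, Stat5b, 2 genes of each pathway list with the lowest p without GH, and the 2 genes nearest in pattern to the 3 members of widest range. Epithelial, endothelial and skeletal muscle marker lists were also read: without GH they had 1 gene higher and 1 lower of 10, 2 higher and 3 lower of 10, and 3 higher and 3 lower of 12, and fibroblast markers 4 higher and 2 lower of 12. Over all genes, 24.8% were higher and 22.7% lower in that comparison. The members and lists were chosen with earlier results of these data known.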

Additional observations from a re-analysis of the deposited data

Results flagged for a closer look

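The GH effect on Cdk6 differed between the genotypes by the test of the difference itself. The effect in null cells minus that in wild-type cells was 0.678 on the log2 scale for the probe set that stood for the gene. The other 2 probe sets, 1455287_at and 1460291_at, gave 0.722 and 0.609 (limma adjusted p = 0.00913 and adjusted p = 0.0334 over all probe sets). The level rose with GH on both null arrays, at 11.46 and 11.64 against 10.86 and 10.78 without GH, and did not pass in wild-type cells. Groups of 2 arrays are too small for a check of single outlying samples.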

How the results depend on the processing

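With 2 arrays per group, calls of small differences depended on single arrays and on the threshold. Leaving out each array in turn, members called numbered 5 to 8 for null over wild type without GH (8 with all arrays; 5 without replicate 2 of wild-type cells without GH, where Ccne1, Cdk4 and Rbl1 missed), 4 to 5 with GH, 0 for GH in wild-type cells, 1 for GH in null cells and 0 to 1 for the difference between GH effects. Tested against a change of 1.5-fold, 4 and 3 members passed for genotype without and with GH, and 0 for the response to GH in null cells or the difference between GH effects. With a variance trend, 2 members passed for GH in null cells, Cdk6 and Ccnd3 (-0.24, adjusted p = 0.0475). Ccnd3 was called higher in null cells without GH with the mean of its probe sets. Its probe set 1438805_at gave 0.45 with GH, of the other sign, but its level was below the first quartile in both groups (5.82 in null and 5.38 in wild-type cells), so no direction is read from it. Of 940 member differences recomputed, 903 kept their direction where called and their side of the threshold, 25 lost and 11 gained a call. By the replicate numbers of the titles, differences between replicates correlated at -0.28 to 0.13 between groups, and 2 of 6 pairs of groups were below -0.1. This cannot settle whether samples were paired, because 1 null array without GH has another number in its source label. The replicate block used the titles' numbers too. With the replicate block, 1 of 50 member calls changed, Cdk4 without GH (0.24, adjusted p = 0.0522), and calls over all genes fell to 1713 for GH in null cells, against 2130 without the block. Calls over all genes under the 1.5-fold test numbered 2605, 2423, 109, 145 and 90 in the 5 comparisons, against 8640, 8247, 476, 2130 and 938. Testing each probe set alone called 17383, 16797, 807, 4877 and 2469, and 316 genes were called for GH in wild-type cells in the 4-array fit. With each array left out in turn, calls over all genes ranged from 295 to 460 for GH in wild-type cells, 818 to 2409 for GH in null cells and 437 to 872 for the difference between GH effects.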
